A study of Mus musculus with 2 samples.

Results

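The 10 genes described here encode BCL2 family proteins that decide whether the mitochondrial outer membrane is opened in apoptosis: Bcl2, Bcl2l1, Mcl1, Bax, Bak1, Bid, Bad, Bcl2l11, Bbc3 and Pmaip1. They were chosen by name from the 22556 genes of the count table, and all 10 were found in it. Polyadenylated RNA was sequenced from iXist-ChrX-Dom cells, a female (XX) mouse embryonic stem cell (mESC) line of strain Dom/129S x Cast. In these cells a TetOn promoter had replaced the endogenous Xist promoter on the Dom/129S allele, and Xist had not been induced (0 h, untreated). There was 1 group of 2 replicates, made to rank genes by their starting expression, so no treatment was compared. The cells were grown in serum with LIF-conditioned medium on inactivated mouse fibroblasts, which were taken off by pre-plating before experiments, and both replicates carry the engineered allele.

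BCL2 family proteins fall into groups by role. Guardians (Bcl2, Bcl2l1, Mcl1) hold the other members in check, effectors (Bax, Bak1) assemble pores in the mitochondrial outer membrane that let cytochrome c out, and BH3-only proteins (Bid, Bad, Bcl2l11, Bbc3, Pmaip1) relay stress signals by docking a short helix, the BH3 motif, into the groove of a guardian or an effector. ES cells are known for a low threshold for apoptosis and for their reliance on the short-lived guardian MCL1.

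The BH3 motif is the one sequence feature that runs through all 3 roles, so its coding stretch is shown for the most and the least abundant guardian, both effectors, and for Bid and Bad among the BH3-only genes. Each stretch holds 48 coding bases (16 codons), 5′ to 3′ on the coding strand, from the GENCODE M21 transcripts on GRCm38, the assembly of mm10. Capitals mark the 6 core codons that were searched for: a leucine, any 3 residues, a glycine, alanine or serine, and an aspartate.
Mcl1: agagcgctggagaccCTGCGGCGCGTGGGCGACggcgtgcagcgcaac
Bcl2: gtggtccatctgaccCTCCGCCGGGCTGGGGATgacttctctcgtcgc
Bax: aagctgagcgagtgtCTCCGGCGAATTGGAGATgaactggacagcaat
Bak1: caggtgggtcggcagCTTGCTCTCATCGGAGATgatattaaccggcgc
Bid: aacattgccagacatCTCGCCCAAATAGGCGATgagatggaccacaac
Bad: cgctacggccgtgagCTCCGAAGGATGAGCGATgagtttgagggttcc

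The Mcl1 stretch lies at chr3:95659421-95659468 on the plus strand, in exon 1 of 3, and the Bcl2 stretch at chr1:106712569-106712616 on the minus strand, in exon 1 of 2. That of Bax lies at chr7:45465991-45466038 on the minus strand, in exon 3 of 6, and that of Bak1 at chr17:27022525-27022572 on the minus strand, in exon 4 of 6. Bid carries it at chr6:120897283-120897330 on the minus strand, in exon 4 of 6, and Bad at chr19:6950777-6950824 on the plus strand, in exon 3 of 4. The search found 1 match in 9 members and 2 in Pmaip1, whose protein is known to carry a pair of BH3 motifs. Over the 54 pairs of stretches from different genes, identity ran from 33.3% to 60.4% with a median of 43.8%. The core match is a description of these letters, and no binding was measured.

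The replicates held 23716499 and 20275749 fragments assigned to genes. A gene without a count can hold up to 3, which is 0.126 CPM (counts per 1000000) in replicate 1 and 0.148 CPM in replicate 2. The replicates were not copies of one library. By an exact binomial test of each gene's pair of counts, 60.8% of the 14536 genes with at least 10 counts in total differed between the replicates beyond counting error, 15.1% being higher and 45.7% lower in replicate 2, and the median log2 ratio of replicate 2 over replicate 1 was -0.31. The ratio went with base composition: its median was 0.16 over 2680 autosomal genes whose longest transcript had a GC content under 45%, and -0.71 over 1244 with 55% or more. Of 12 ES cell markers, 11 reached 1 TPM (transcripts per 1000000), with summed levels of 5642 and 4514 TPM, and 10 of the 12 were lower and 1 was higher in replicate 2 (7 lower and 3 higher with TMM factors, beside 28.9% and 28.8% of all genes, and the same numbers with the GC trend described below, beside 21.6% and 23.0%). Singled out after their values were seen, Pou5f1, the gene of OCT4, went from 110 to 17.2 TPM with a log2 ratio of -2.76, and Dppa5a from 626 to 79.6 TPM with -3.06. After the GC trend these ratios were -1.99 and -2.68, larger in size than those of any member. How much of the sequence of the markers also occurs in other genes was not checked. Of 8 neural precursor markers 1 reached 1 TPM, Nes at 3.80 TPM, with summed levels of 5.08 and 4.47 TPM and Sox1 and Olig2 among those at 0 counts. Of 9 feeder fibroblast markers 1 reached 1 TPM, Thy1 with 32 and 2 counts and a log2 ratio of -3.47, and the summed levels were 3.07 and 0.726 TPM with Lum at 0 counts. The labels give the cell type as mESC to NPC (neural precursor cell), of which ES cell markers other than Utf1 were found here at 1 TPM or more on average. The part of the marker differences and of GC content in the results below was not tested, and in bulk RNA fewer cells of a type and less RNA per cell cannot be told apart.

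Mcl1 was by far the most abundant transcript of the 10 genes, and it outnumbered the other 9 together. Levels between genes are given as TPM over exonic length, meaning counts divided by the union of a gene's annotated exons and scaled to 1000000 per library. The counts were taken over whole transcript spans, so they can also hold fragments from introns, whose share was not measured. Levels over exons may thus be too high where introns are long, as in Bcl2 and Bcl2l1. Mcl1 made up 81.2% of the summed TPM of the 10 members in replicate 1 and 84.6% in replicate 2, and Pmaip1 added 9.98% and 10.9%. A mean level of at least 1 TPM was reached by 9 of the 10 members, against 55.4% of all genes with an exonic length. The median member lay at 12.5 TPM (12.8 and 12.1 in the replicates), and the median of the 12253 genes at 1 TPM or more at 18.4 TPM.

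**Figure D1:**
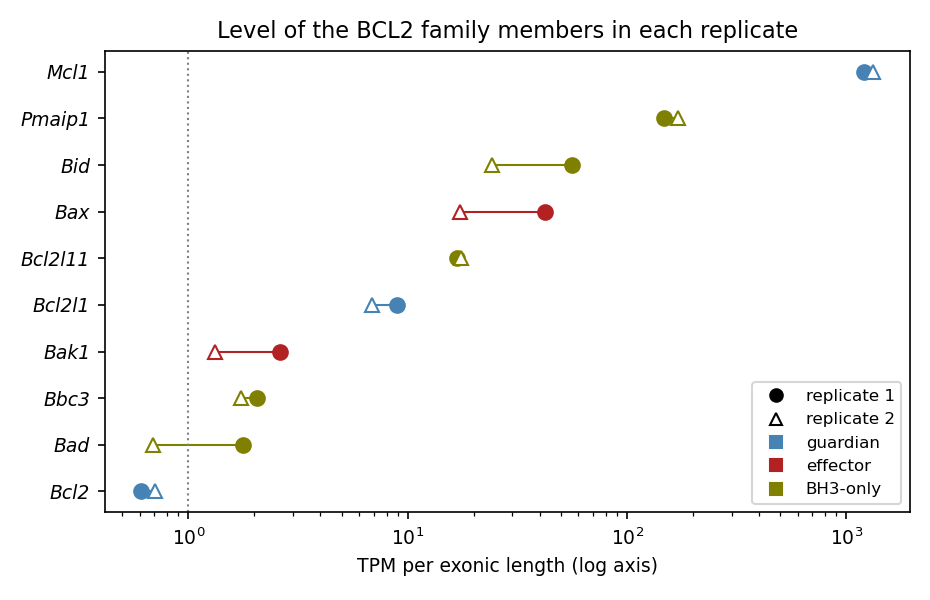
Level of each member in TPM over exonic length (log axis, 1 row per gene, ordered by mean level), with replicate 1 as a filled circle, replicate 2 as an open triangle and colours for the roles. Mcl1 stands alone at 1201 and 1324 TPM, Bcl2 lies left of the dotted line at 1 TPM in both replicates, and Bid, Bax, Bak1 and Bad have the widest gaps between symbols.

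The order from high to low was Mcl1, Pmaip1, Bid, Bax, Bcl2l11, Bcl2l1, Bak1, Bbc3, Bad and Bcl2. Of the 9 neighbouring pairs in it, 4 had replicate values that did not overlap. Mcl1 stood 7.93-fold above Pmaip1, Pmaip1 3.96-fold above Bid (2.63-fold and 7.06-fold within the replicates), Bcl2l11 2.15-fold above Bcl2l1, and Bcl2l1 4.02-fold above Bak1. The other 5 pairs (Bid and Bax, Bax and Bcl2l11, Bak1 and Bbc3, Bbc3 and Bad, Bad and Bcl2) overlapped between the replicates. Within each replicate, Bid lay 1.33-fold and 1.39-fold above Bax and Bbc3 1.15-fold and 2.51-fold above Bad, while the order of the remaining 3 pairs differed between the replicates. An exact permutation test of 2 values against 2 cannot give a two-sided p below 0.333, so no neighbours were tested.

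Among the guardians, Mcl1 was high, Bcl2l1 was low and Bcl2 stayed under 1 TPM. Mcl1 (chr3:95658720-95663178, plus strand), which encodes a short-lived guardian that sequesters BAK1 and BIM, was counted 30856 times in replicate 1 and 27349 times in replicate 2. This gave 1201 and 1324 TPM, a mean of 1262 ± 86.8 (SD, n = 2), above 99.7% of the genes with an exonic length. Bcl2l1 (chr2:152758731-152831728, minus strand), the gene of BCL-XL, had 261 and 162 counts, or 8.93 and 6.89 TPM and a mean of 7.91 ± 1.44 (SD, n = 2). Bcl2 (chr1:106538177-106714290, minus strand), the founding guardian of the family, had 42 and 39 counts, or 0.610 and 0.705 TPM and a mean of 0.657 ± 0.0668 (SD, n = 2).

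All 3 guardians were far above the floor of 3 counts in each replicate, and their levels did not overlap. Within each replicate, the TPM of Mcl1 was 134-fold and 192-fold that of Bcl2l1, and 1968-fold and 1879-fold that of Bcl2. Bcl2l1 in turn lay 14.6-fold and 9.79-fold above Bcl2. Mcl1 alone supplied 99.2% and 99.4% of the summed guardian TPM. These folds depend on the gene length used. Over the deposited length, described below, Mcl1 was 1935-fold and 2764-fold above Bcl2l1, and 29016.5-fold and 27697.1-fold above Bcl2.

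Both effector genes were detected, with Bax well above Bak1. Bax (chr7:45461694-45466898, minus strand), whose protein moves from the cytosol to mitochondria on activation, had 275 and 91 counts, or 42.2 and 17.4 TPM and a mean of 29.8 ± 17.6 (SD, n = 2). Bak1 (chr17:27019811-27028626, minus strand), whose protein sits in the mitochondrial outer membrane, had 47 and 19 counts, or 2.62 and 1.32 TPM and a mean of 1.97 ± 0.921 (SD, n = 2). With so few counts, the 95% Wilson intervals of Bak1 were 1.49 to 2.64 CPM in replicate 1 and 0.600 to 1.46 CPM in replicate 2, which cover counting error only. Both genes were lower in replicate 2 by total counts, yet Bax exceeded Bak1 by 16.1-fold and 13.2-fold within the replicates.

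The 5 BH3-only genes spanned more than the effectors, from Pmaip1 to Bad. Pmaip1 (chr18:66458603-66465558, plus strand), which encodes NOXA, a partner of MCL1 that promotes its degradation, had 3033 and 2819 counts, or 148 and 171 TPM and a mean of 159 ± 16.3 (SD, n = 2). Bid (chr6:120893118-120916820, minus strand), whose protein is cut by caspase-8 and links death receptors to mitochondria, had 924 and 320 counts, or 56.1 and 24.2 TPM and a mean of 40.2 ± 22.6 (SD, n = 2). Bcl2l11 (chr2:128126037-128162547, plus strand), the gene of BIM, had 865 and 726 counts, or 16.7 and 17.4 TPM and a mean of 17.1 ± 0.516 (SD, n = 2).

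All 3 genes lay well above 1 TPM in both replicates, with Bcl2l11 the most even of them and Bid the least. Bbc3 (chr7:16309582-16318334, plus strand), which encodes the p53 target PUMA, had 28 and 19 counts, or 2.05 and 1.73 TPM and a mean of 1.89 ± 0.227 (SD, n = 2). Bad (chr19:6941860-6951905, plus strand), whose protein is held by 14-3-3 proteins when phosphorylated, had 32 and 10 counts, or 1.78 and 0.691 TPM and a mean of 1.24 ± 0.769 (SD, n = 2). Bad was the only member on both sides of 1 TPM, above it in replicate 1 and below it in replicate 2. The TPM of Pmaip1 was 71.9-fold and 98.5-fold that of Bbc3, and 83.0-fold and 247-fold that of Bad.

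Summed over the roles of the 10 genes, guardian transcripts outnumbered effector and BH3-only transcripts, and this rested on Mcl1 and on which BH3-only genes are counted. The 5 other BH3-only genes described below, Bnip3 among them, summed to 1176 and 1552 TPM and are not in these sums. The guardian sum was 1210 and 1331 TPM, the effector sum 44.8 and 18.7 TPM, and the BH3-only sum 224 and 215 TPM. The log2 ratio of guardians to effectors was 4.76 and 6.16 in the replicates (mean 5.46), and that of guardians to BH3-only genes 2.43 and 2.63 (mean 2.53). Without Mcl1 these ratios turned to -1.76 and -4.69, so that effectors and BH3-only genes then exceeded Bcl2l1 and Bcl2 together. Without Pmaip1, the ratio of guardians to BH3-only genes was 4.45, and without both Mcl1 and Pmaip1 it was -2.77. Over the deposited gene length, which includes introns, the mean ratios were 7.59 and 3.79. Bnip3 then had 467 and 663 TPM, the BH3-only members summed to 340 and 391, and the guardians to 4668 and 5431. Over that length the guardian sum thus stayed above the BH3-only genes, also with the 5 others added. These are ratios of transcripts, and protein was not measured.

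The count table carries a gene length of its own, which spans introns and exons alike. Levels over it were lower than levels over exons for Bcl2 and Bcl2l1, which have long introns, and higher for Mcl1 and Pmaip1. The table gives Bcl2 176114 bases where its exons cover 9157, and its mean level was 0.178 TPM over the deposited length against 0.657 over exons. For Bcl2l1 the lengths were 72998 and 3887 bases and the levels 2.19 and 7.91 TPM. Mcl1, with 4459 and 3418 bases, went the other way, to 5047 TPM against 1262, and Pmaip1 to 326 TPM against 159, since TPM over either length is scaled to the same sum. Of the 10 members, 6 had the same rank under both lengths. Bax passed Bid, with 25.5 and 19.1 TPM, and Bak1 passed Bcl2l1, with 2.75 and 2.19 TPM. No member shares bases with another gene on its strand, and at most 0.224% of the 50-base words of a member's longest transcript occur in a gene elsewhere, with none for 8 members.

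**Figure D2:**
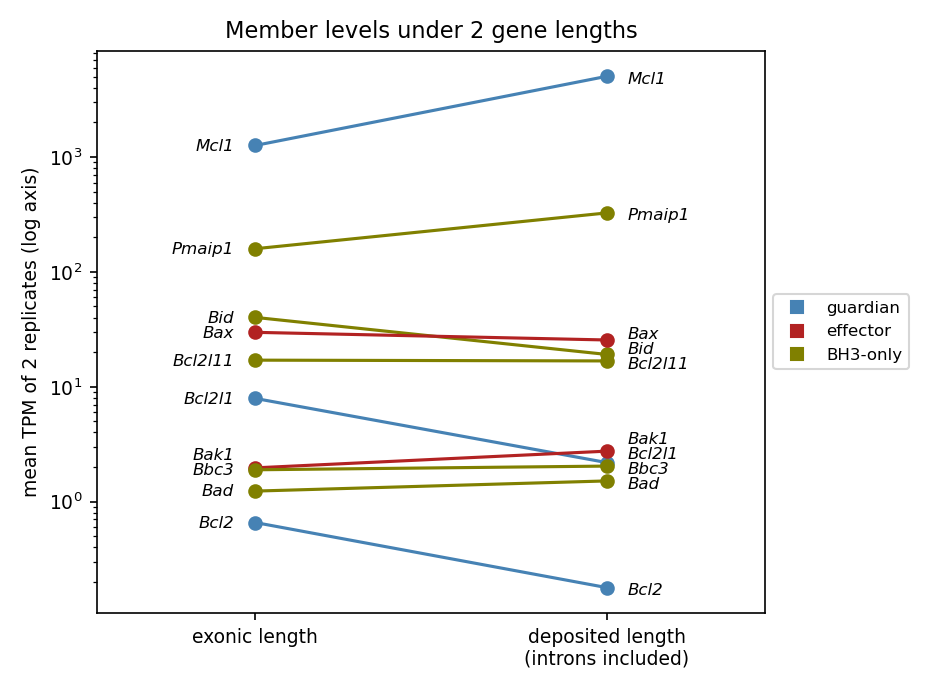
Mean level of each member in TPM (log axis) over exonic length on the left and over the deposited length, introns included, on the right, with a line for each gene and colours for the roles. Mcl1 moves from 1262 to 5047 TPM and Bcl2 from 0.657 to 0.178 TPM, while Bcl2l11 stays at 17.1 and 16.8 TPM.

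Between the replicates, 7 of the 10 members differed beyond counting error, 2 being higher and 5 lower in replicate 2, beside 60.8% of all genes tested (15.1% higher and 45.7% lower). The test was a two-sided exact binomial test with Benjamini-Hochberg adjustment over the 14536 genes, and it compares these libraries, not conditions. Nothing in the labels says that the replicates were separate cultures, so the differences may be technical. The p-values set each pair of counts against counting error alone, and no spread between replicates was estimated for them. The log2 ratios below are of CPM after 0.5 counts were added to each count.

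The largest of these differences among members counted at least 50 times in both replicates were those of Bax and Bid. Bax had a log2 ratio of -1.36 (95% interval -1.73 to -1.02, exact binomial adjusted p = 3.98e-16), larger in size than that of 95.9% of the 9736 genes with such counts. Bid had a log2 ratio of -1.30 (-1.49 to -1.12, exact binomial adjusted p = 3.87e-48), larger in size than that of 95.0% of these genes. Bad, at 32 and 10 counts, had a log2 ratio of -1.40 with a wide interval (-2.64 to -0.39, exact binomial adjusted p = 0.00906), and Bak1 one of -1.06 (-1.93 to -0.28, adjusted p = 0.0116). Bcl2l1 was lower by less, with a log2 ratio of -0.46 (-0.75 to -0.17, exact binomial adjusted p = 0.00269).

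The other 5 members had log2 ratios closer to 0. Pmaip1 had a log2 ratio of 0.12 (0.05 to 0.20, exact binomial adjusted p = 0.00301) and Mcl1 one of 0.05 (0.03 to 0.08, adjusted p = 3.89e-05), a small difference that its many counts resolved. Bcl2l11 had a log2 ratio of -0.03 (-0.17 to 0.12, exact binomial adjusted p = 0.787), Bbc3 one of -0.32 (-1.26 to 0.56, adjusted p = 0.548) and Bcl2 one of 0.12 (-0.55 to 0.78, adjusted p = 0.800). The intervals of Bbc3 and Bcl2 both held the ratio of Bcl2l1, so a difference of that size was not detectable for them at this depth.

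**Figure D3:**
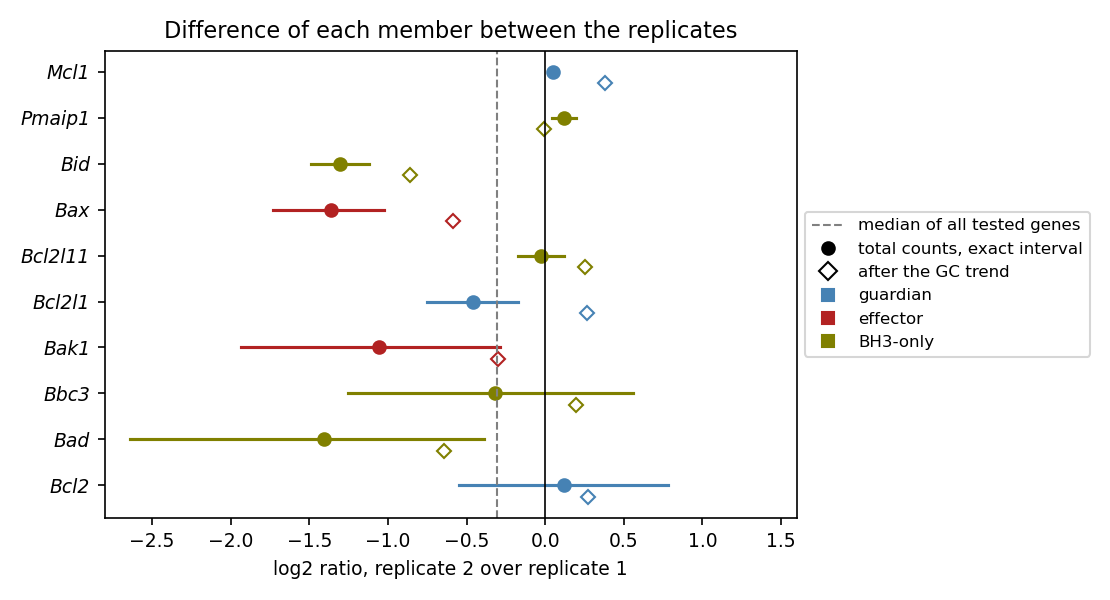
Log2 ratio of replicate 2 over replicate 1 for each member, with filled circles and 95% exact binomial intervals from total counts, open diamonds for the ratio left after the GC trend, a solid line at 0 and a dashed line at the median of all tested genes (-0.31). The whole intervals of Bid, Bax and Bad lie left of the dashed line, and the diamonds of Bcl2l1, Pmaip1, Bcl2l11 and Bbc3 lie across 0 from their circles.

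The split depended on the scaling. TMM factors, which align the bulk of genes rather than the totals, moved every log2 ratio up by 0.26 and brought the median of tested genes to -0.05. Then 6 members passed the same test, 3 higher (Mcl1, Pmaip1, Bcl2l11) and 3 lower (Bid, Bax, Bad) in replicate 2, beside 57.7% of all genes (28.8% higher and 28.9% lower). The log2 ratios were then 0.31 for Mcl1, 0.38 for Pmaip1, 0.23 for Bcl2l11, -1.05 for Bid, -1.11 for Bax and -1.15 for Bad. Bcl2l1 (adjusted p = 0.235, exact binomial test) and Bak1 (adjusted p = 0.0578, exact binomial test) no longer passed.

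The replicate differences of the members ran with their GC content. The 5 members with a transcript GC content of at least 55% (Bcl2l1, Bak1, Bad, Bax, Bbc3) had log2 ratios from -1.40 to -0.32, and the 4 under 50% (Pmaip1, Bcl2, Bcl2l11, Mcl1) from -0.03 to 0.12. Spearman's rho of the log2 ratio and GC content was -0.76 over the 10 members and -0.66 over the 9243 autosomal genes that had 50 counts or more in both. These are descriptions across genes that share the same pair of libraries, and genes are not independent replicates. Bid had a GC content of 50.4% and the third lowest ratio.

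**Figure D4:**
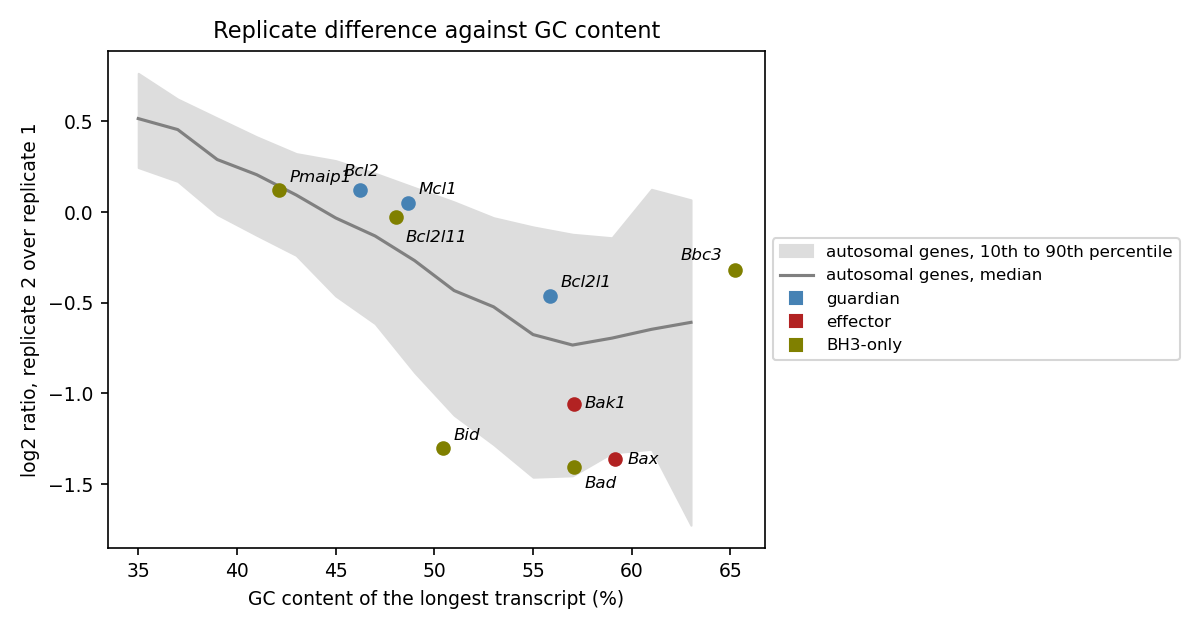
Log2 ratio of replicate 2 over replicate 1 against the GC content of the longest transcript in percent, with the 10 members as coloured points, the median of autosomal genes in steps of 2 percentage points as a grey line and their 10th to 90th percentile as a band. The median runs from 0.52 at the low end to -0.73 between 56% and 58%, and Bid, at 50.4% and -1.30, and Bax, at 59.2% and -1.36, lie under the band, Bax by little.

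Measured against the GC trend, a cubic curve through the autosomal genes, 4 members differed by the same test, beside 44.6% of all genes tested (23.0% higher and 21.6% lower in replicate 2). Bid, with a log2 ratio of -0.86 from the trend, and Bax, with -0.58, were lower in replicate 2 (exact binomial adjusted p = 1.74e-20 and 0.00179). Mcl1 at 0.38 and Bcl2l11 at 0.25 were higher (exact binomial adjusted p = 3.64e-214 and 0.00169). Pmaip1 lay on the trend, with -0.01 left (adjusted p = 0.899, exact binomial test), and Bcl2l1 turned to 0.27 (adjusted p = 0.137, exact binomial test). Bak1, Bbc3, Bad and Bcl2 had between -0.65 and 0.27 left, with Bbc3 turning from -0.32 to 0.20, and none of these passed. Bid and Bax were thus lower and Mcl1 higher in replicate 2 under total counts, TMM factors and the GC trend.

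The 55 other genes of the pathway placed the family among its partners, and 45 of them had a mean of at least 1 TPM, with a median of 14.8 TPM. Of the 50 with at least 10 counts, 37 differed between the replicates, 11 higher and 26 lower in replicate 2, beside 60.8% of all genes (15.1% higher and 45.7% lower). With TMM factors the split was 20 higher and 20 lower, beside 28.8% and 28.9% of all genes, and with the GC trend 16 and 16, beside 23.0% and 21.6%. Their levels follow in the order of the pathway.

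Among the rest of the family, the other guardians were scarce, with 1 of 5 at 1 TPM or more. That was Bcl2l2, the gene of BCL-W, at 7.47 ± 1.84 TPM (SD, n = 2) beside 7.91 for Bcl2l1. Over the deposited length the values were 32.8 and 2.19 TPM. Bcl2a1a and Bcl2a1d, copies of the A1 guardian gene, had 0 counts in both replicates, but 69.0% and 79.5% of their 50-base words occur elsewhere, so their reads may not be assigned. The third effector-like gene, Bok, had 23 and 4 counts and a mean of 1.26 ± 1.15 TPM (SD, n = 2).

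All 5 other BH3-only genes reached 1 TPM. Bnip3, a hypoxia-responsive gene with a role in mitophagy, was highest at 1087 ± 226 TPM (SD, n = 2), beside 1262 for Mcl1, or 565 beside 5047 TPM over the deposited length. As 48.9% of its words occur elsewhere, its value is uncertain. Hrk was lowest at 1.25 ± 0.545 TPM. Of the 4 BCL2-like genes, 3 reached 1 TPM, from Bcl2l15 with a mean of 0.448 ± 0.313 TPM to Bcl2l13 with 13.5 and 8.58 TPM in the replicates. Bcl2l13 is the tail-to-tail neighbour of Bid on chromosome 6, on the opposite strand.

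The voltage-dependent anion channels Vdac1, Vdac2 and Vdac3, of which VDAC2 is known to bind BAK and BAX, had 693 ± 116, 621 ± 152 and 300.1 ± 49.7 TPM (SD, n = 2), with 47.5% of the words of Vdac3 occurring elsewhere. Of 6 genes for proteins released from mitochondria or forming the apoptosome, 5 reached 1 TPM, with Aifm1 highest over exonic length at 267 ± 4.01 TPM. Over the deposited length Cycs, the gene of cytochrome c, was highest at 113 TPM, beside 85.4 for Aifm1. As 28.5% of the words of Cycs occur elsewhere, its value is uncertain. Endog, a mitochondrial nuclease, was lowest with 1 count in each replicate.

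The caspases named here were all detected. The initiators Casp2, Casp8 and Casp9 had 61.3 ± 3.56, 6.57 ± 2.09 and 5.23 ± 1.58 TPM (SD, n = 2). Casp9, which the apoptosome activates, and Casp8, which cuts BID, thus lay far below Casp2. The executioner Casp6 had 20.4 ± 4.77 TPM. All 5 inhibitor of apoptosis genes reached 1 TPM, from Birc3 at 5.09 ± 0.142 to Birc2 at 214 ± 8.22 TPM.

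By median over exonic length, the death receptor genes were the lowest group after the other guardians and Bok. Of the 7, 4 reached 1 TPM or more, with a median of 3.29 TPM. This rank did not hold over the deposited length, where the BCL2-like genes had a lower median than the death receptor genes. Ripk1, a kinase of the receptor complex, was highest at 10.7 ± 1.46 TPM (SD, n = 2), and Tnfrsf1a, a TNF receptor, lowest at 0.254 ± 0.184 TPM with 2 and 5 counts. By contrast, all 6 regulators of family members reached 1 TPM, with a median of 55.6 TPM, from Foxo3, a transcription factor for Bcl2l11 and Bbc3, at 14.8 ± 1.62 to Usp9x, a deubiquitinase that stabilises MCL1, at 729 ± 66.5 TPM. Of the 7 genes of 14-3-3 proteins, which bind phosphorylated BAD, 6 reached 1 TPM, from Sfn at 0.474 ± 0.380 to Ywhae at 1163 ± 48.0 TPM.

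**Figure D5:**
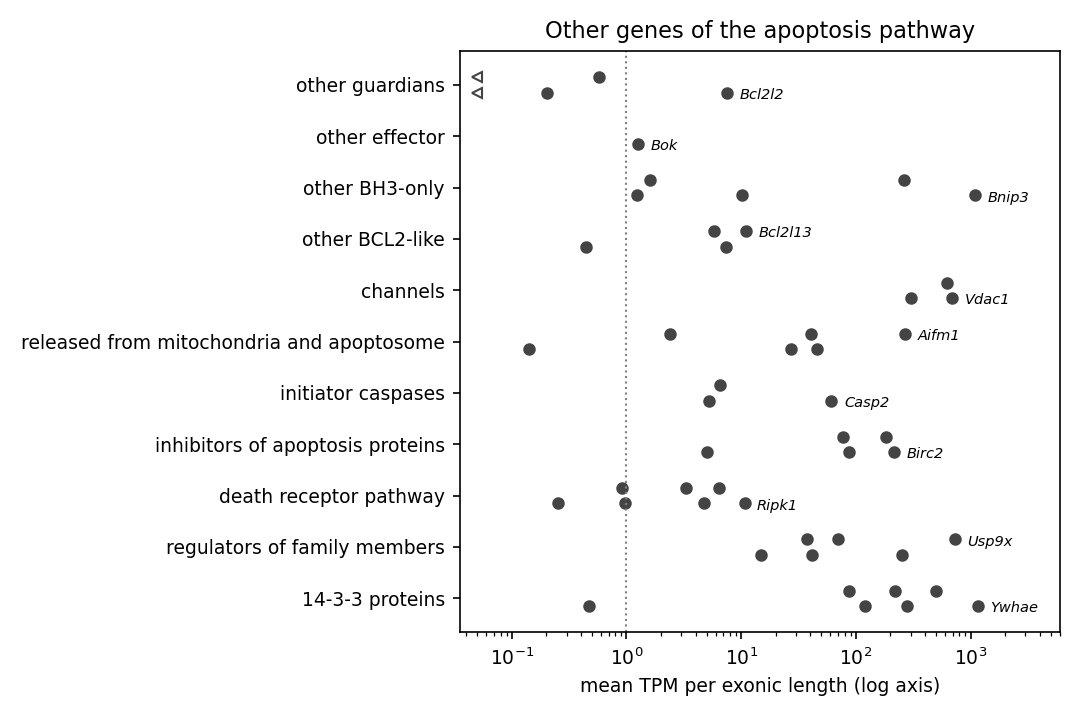
Mean level of 52 of the other pathway genes in TPM over exonic length (log axis), 1 point per gene and 1 row per group, with the highest gene of each group named, a dotted line at 1 TPM and open triangles at the left edge for Bcl2a1a and Bcl2a1d, which had 0 counts. Bnip3 and Ywhae reach 1087 and 1163 TPM, and the other guardians and the death receptor genes hold most of the points left of the line.

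The pathway genes that differed most between the replicates were Ripk3, Bok and Bcl2l12. Ripk3, a kinase of necroptosis, was counted 27 times in replicate 1 and not at all in replicate 2, at least 7.69-fold lower by total counts when 3 counts are allowed there and the 27 are taken as exact (exact binomial adjusted p = 2.87e-07). With the counting error of both, the 95% interval of its log2 ratio ended at -2.55. Bok had a log2 ratio of -2.16 (exact binomial adjusted p = 0.0018) and Bcl2l12, with 71 and 18 counts, one of -1.72 (exact binomial adjusted p = 1.78e-06). All 3 were also lower with TMM factors and after the GC trend, where Bok no longer passed (adjusted p = 0.0852, exact binomial test).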

How the data were processed

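Messenger RNA libraries of 2 replicates of uninduced mESCs were analysed, grouped and numbered as in the labels. The deposited values are counts: per the file headers, the authors counted fragments per gene with featureCounts (version 1.5.2) in reverse-stranded mode over whole transcript spans on mm10. Bowtie2 2.3.2 and STAR 2.4.2a are in the submitters' processing notes. The deposited length column (in bases) equalled the union of transcript spans for all 22556 genes. Column names lack a letter found in the sample descriptions and were matched by the rest of the name.

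Exonic lengths (GENCODE M21 basic, GRCm38) were found for 22125 genes, 886 by an older symbol. The other 431, with 0.214% and 0.215% of the counts, got no TPM. TPM was averaged over replicates as in the study. The exact binomial test used scipy 1.17.1 on genes with at least 10 counts in total, with adjusted p under 0.05 as the call. It was tested on simulated counts that held counting error only and no GC trend. That run cannot show how the test behaves on the wider spread of the real libraries. Scalings came from edgeR 4.0.16 (TMM) and DESeq2 1.42.0 (size factors), with R 4.3.3. Alternatives were other lengths, scalings, filters, pseudocounts and a GC trend. Intervals cover counting error only. The reads carry no molecular identifiers and several may stem from 1 molecule, so the intervals may be too narrow. Named genes were all members, the highest and lowest of each list (all of lists of up to 3), and the 3 pathway genes with the largest called replicate ratio. Cycs was added for its level over the deposited length. A few genes of these lists are not reported here. No genes of like pattern were sought, since 2 replicates of 1 group hold none. The members and lists were chosen with earlier results of these data known.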

Additional observations from a re-analysis of the deposited data

How the results depend on the processing

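No paired analysis was possible because only 1 group was sequenced. Leaving out either replicate gave a guardian to effector log2 ratio of 4.76 to 6.16, a guardian to BH3-only ratio of 2.43 to 2.63, a median member level of 12.1 to 12.8 TPM and 8 to 9 members at 1 TPM or more. With the deposited length these ratios were 7.59 and 3.79 and the median level 9.77 TPM, without a length (CPM) 7.28, 2.75 and 8.77 CPM, and with the longest transcript the median was 16.7 TPM. In settings added after the data were seen, leaving out Mcl1 turned the ratios to -1.76 and -4.69 (deposited length -3.47 and -7.27), leaving out Pmaip1 moved the second to 4.45 (7.02), and leaving out both turned it to -2.77 (-4.04). The GC trend left 4 members beyond counting error instead of 7, and turned the log2 ratios of Bcl2l1 to 0.27, of Bbc3 to 0.20 and of Pmaip1 to -0.0089. The ratio of Bcl2l11 turned to 0.23 with TMM factors, 0.29 with DESeq2 size factors and 0.25 with the GC trend. Leaving out a member removes its transcripts by construction, and the cause of the other changes was not tested. Of the 44 alternatives of the summary values, 28 stayed within their limits. Depth limits Bcl2, Bad, Bbc3 and Bak1, each with under 50 counts in at least 1 replicate, and 2 replicates limit every level.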
